A study of Mus musculus with 8 samples.

Results

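In all, 10 genes were followed here across the lymphoma libraries: Cr2, Fcer2a, Cd1d1, Cd9, Myof, Notch2, Dtx1, Plac8, Cd38 and Cd5, a set of markers that tell marginal zone, follicular, memory and B-1 B cells apart in mouse spleen. The rule picks them by gene name, as the 10 loci of 25477 in the deposited expression table that carry these names, with 1 locus for each symbol, and the names were chosen with earlier results of these data known. RNA had been extracted from spleen-derived mouse lymphoma cells positive for B220, a B cell surface form of CD45, and for green fluorescent protein (GFP). In 4 libraries the cells carried shCrebbp, a short hairpin RNA against Crebbp, which encodes a histone acetyltransferase, and in 4 libraries a scramble shRNA. Besides the hairpin, the labels name the same tissue, surface marker and GFP for both groups. They give no mouse strain, age or lymphoma-driving allele, and do not say whether libraries came from separate animals, so p-values measure only the spread between these libraries. By name, shCrebbp 3 and 4 carry the prefix AO229, shCrebbp 1 and 2 the prefix AO228 and all scramble libraries the prefix AO227. What these prefixes stand for is not stated, and as no prefix holds both groups, prefix and group cannot be told apart.

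Mature B cells of the spleen fall mainly into follicular cells, which recirculate and enter germinal centres in T cell-dependent responses, and marginal zone cells, which stay beside the marginal sinus and respond quickly to blood-borne antigen. The marginal zone fate depends on the receptor Notch2, which is engaged by Delta-like ligand on stromal cells, cleaved by gamma-secretase, and then acts with the DNA-binding protein Rbpj in the nucleus. Marginal zone cells carry much CD21 and CD1d and little CD23, follicular cells carry much CD23, and mouse germinal centre B cells carry little CD38.

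Values are FPKM, which express the fragments of a locus per kilobase of its transcript and relative to the fragments sequenced, so that loci can be compared per length. Depth in reads is unknown, and the share of loci listed at 0 ran from 33.2% in shCrebbp 3 to 51.8% in scramble 2. Summed FPKM over all loci was 2051307 to 2090792 in AO229 and 681736 to 1099919 in AO228, against 1105542 to 21453839 in scramble libraries. Without the 12 loci that exceeded 100000 FPKM in any library it was 653809 to 958411 in AO229 and 595791 to 1039322 in AO228, against 813791 to 1075872 in scramble libraries, so that the prefixes overlapped. All 10 markers averaged 1 FPKM or more over the 8 libraries, as did 11417 loci in all, and these were tested. The targeted Crebbp itself had 23.4 and 19.3 FPKM in AO229 and 18.9 and 26.6 FPKM in AO228 libraries, against 33.7, 22.9, 21.3 and 25.8 FPKM in scramble libraries. The groups overlapped for Crebbp (limma adjusted p = 0.915), so its RNA is no check of the labels, and groups are named here as the labels name them. The 8 B cell markers measured, such as Cd79a and Cd79b of the B cell receptor, were all expressed, and their summed level was 2439.5 to 3038 FPKM in shCrebbp and 2306 to 2679.5 FPKM in scramble libraries. In bulk RNA such as this, fewer cells of a type and less RNA per cell cannot be told apart.

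Between shCrebbp and scramble libraries no marker passed the test (limma adjusted p under 0.05), nor did any other of the 11417 loci (0%). Within the shCrebbp group the libraries split by name prefix. All 10 markers had a higher mean in AO229 than in AO228 libraries, as did 50.4% of all loci. The gap exceeded 1 on the log2(FPKM + 1) scale for 7 of them (6.08% of all loci), and it passed the test for Fcer2a, Plac8 and Cd38 (0.666% of all loci in that direction). For Cr2, Fcer2a, Cd1d1, Notch2, Plac8 and Cd38 the scramble mean lay between the AO229 and AO228 means. For these 6 markers the shCrebbp mean thus joined prefix means on either side of the scramble mean. Single libraries overlapped the scramble range for Cr2, Cd1d1 and Notch2. Only for Fcer2a, Plac8 and Cd38 did both AO229 libraries lie above and both AO228 libraries below every scramble library, as at 1.45% of all loci. For Myof all 4 shCrebbp libraries were below all 4 scramble libraries, as at 1.74% of all loci.

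**Figure D1:**
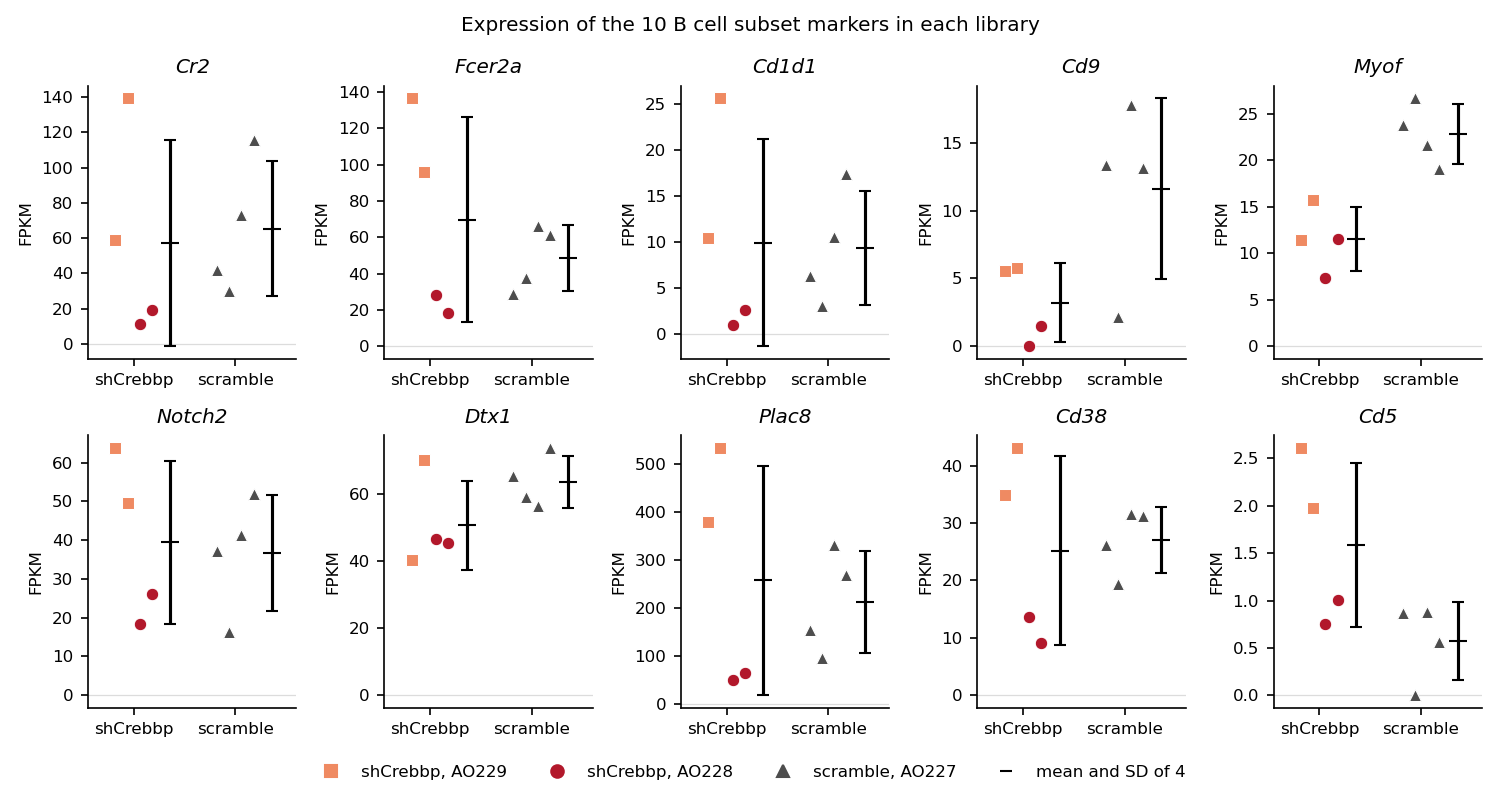
FPKM of the 10 markers in each library, with one panel and one linear axis per gene. Squares are shCrebbp libraries named AO229, circles shCrebbp libraries named AO228, triangles scramble libraries, and bars the mean and SD of 4 libraries; for Plac8, Fcer2a and Cd38 the squares lie above and the circles below every triangle, and for Myof all 4 shCrebbp points lie below the triangles.

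Promoter sequence is shown for 4 of the markers whose levels moved together between the prefixes, with the core letters bound by Rbpj. RefSeq windows from 250 bases before to 50 bases after a gene start, on GRCm38.p6, had an entry for 9 of the 10 markers, 12 windows in all. The letters TGGGAA, searched on both strands so that TTCCCA also counts, occurred in 25.6% of all 32851 promoter windows and in 7 of these 12, which belong to Cr2, Fcer2a, Cd9, Plac8, Cd38 and Cd5. The 4 windows below are written 5′ to 3′ on the gene's strand in lower case, with these letters in capitals where found.
Cr2, chr1:195176670-195176969, minus strand: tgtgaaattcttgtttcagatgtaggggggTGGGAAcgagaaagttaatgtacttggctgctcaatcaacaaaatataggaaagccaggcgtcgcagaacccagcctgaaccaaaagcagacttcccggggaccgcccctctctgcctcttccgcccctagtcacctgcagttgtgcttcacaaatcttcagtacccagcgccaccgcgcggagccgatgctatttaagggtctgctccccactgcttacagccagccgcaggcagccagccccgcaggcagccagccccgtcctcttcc
Fcer2a, chr8:3690812-3691111, minus strand: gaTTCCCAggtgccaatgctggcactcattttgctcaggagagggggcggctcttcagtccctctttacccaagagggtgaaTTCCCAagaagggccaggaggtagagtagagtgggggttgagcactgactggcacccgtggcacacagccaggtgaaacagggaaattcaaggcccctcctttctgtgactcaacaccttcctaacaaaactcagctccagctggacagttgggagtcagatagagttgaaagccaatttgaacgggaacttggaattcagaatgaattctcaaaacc
Plac8, chr5:100572156-100572455, minus strand: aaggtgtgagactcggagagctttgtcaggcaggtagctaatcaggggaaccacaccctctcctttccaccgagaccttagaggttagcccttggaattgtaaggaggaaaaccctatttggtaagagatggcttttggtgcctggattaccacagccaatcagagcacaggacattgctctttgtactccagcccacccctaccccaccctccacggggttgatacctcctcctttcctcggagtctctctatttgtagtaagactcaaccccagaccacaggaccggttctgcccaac
Cd38, chr5:43868559-43868858, plus strand: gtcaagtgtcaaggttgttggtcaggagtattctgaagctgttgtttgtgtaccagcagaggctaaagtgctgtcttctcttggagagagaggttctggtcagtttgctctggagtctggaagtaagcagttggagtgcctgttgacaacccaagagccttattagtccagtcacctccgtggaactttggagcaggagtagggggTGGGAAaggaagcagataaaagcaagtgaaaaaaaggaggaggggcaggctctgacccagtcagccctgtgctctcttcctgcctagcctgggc
In Cr2 the match began 220 bases before the gene start, in Cd38 44 bases before it, and in this Fcer2a window 248 and 168 bases before it. The Plac8 window at the upstream start holds none, and neither does the Fcer2a window at that gene's most upstream start. The letters TGACG, part of the cyclic AMP response element, occurred in none of the 12 windows and in 20.8% of all promoters, the whole element TGACGTCA in none and in 1.79%, and CACCC, a core bound by Kruppel-like factors, in 11 of the 12 and in 57.5%. In the Cr2 and Cd38 windows the TGGGAA match follows a run of g, so that it shares bases with GGGTG, which is CACCC on the other strand, and TGACG is contained in TGACGTCA. These letters were chosen after expression had been seen, and a match describes the sequence, not a binding site.

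Among the surface receptors, Cr2 encodes the complement receptors CD21 and CD35, which lower the threshold of the B cell receptor when antigen carries C3 fragments. Its locus lies on the minus strand of chromosome 1 (195134942 to 195176780, mm10). Cr2 had 58.9 and 139 FPKM in the AO229 libraries and 11.4 and 19.6 FPKM in the AO228 libraries, against 42.0, 30.3, 73.1 and 116 FPKM in scramble libraries 1 to 4. Both AO228 libraries were below every scramble library, whereas of the AO229 libraries one lay inside and one above the scramble range. The mean was 57.3 ± 58.4 FPKM in shCrebbp and 65.3 ± 38.2 FPKM in scramble libraries (SD, n = 4 each). The log2 difference of -0.61 had a 95% confidence interval of -2.25 to 1.03 (limma adjusted p = 0.941; exact permutation p = 0.514). Between prefixes the mean was 6.40 times as high in AO229 as in AO228, a log2 difference of 2.52 ± 0.63 (SE) that did not pass adjustment (limma adjusted p = 0.0917).

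Fcer2a encodes CD23, the low-affinity receptor for IgE and the usual marker of follicular B cells. It lies on the minus strand of chromosome 8 (3681737 to 3694385). Fcer2a had 137 and 96.1 FPKM in AO229 and 28.0 and 18.2 FPKM in AO228 libraries, against 28.5, 37.5, 66.1 and 61.5 FPKM in scramble libraries. Every AO229 library was above and every AO228 library below the whole scramble range. Fcer2a was 5.04 times as high in AO229 as in AO228, a log2 difference of 2.29 ± 0.41 (SE; 95% confidence interval 1.35 to 3.23) that passed the test (limma adjusted p = 0.0443). Over the whole groups, 69.7 ± 56.5 FPKM in shCrebbp and 48.4 ± 18.2 FPKM in scramble libraries (SD, n = 4 each) differed by 0.16 on the log2 scale (limma adjusted p = 0.982; exact permutation p = 0.800).

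Cd1d1 encodes the antigen-presenting molecule that shows lipids to natural killer T cells, and its locus is on chromosome 3 (86995836 to 86999422, minus strand). It had 10.4 and 25.6 FPKM in AO229 and 1.03 and 2.62 FPKM in AO228 libraries, against 6.34, 3.02, 10.5 and 17.4 FPKM in scramble libraries. Its order of libraries was that of Cr2: AO228 below all scramble libraries, shCrebbp 4 above all of them. Cd1d1 had the widest ratio of mean FPKM between prefixes of the 10 markers, 9.83 times as high in AO229 as in AO228. That ratio rests on a low AO228 mean of 1.83 FPKM, and on the log2(FPKM + 1) scale the gap of Plac8 was wider (2.96). Its log2 difference between prefixes of 2.68 ± 0.69 (SE) did not pass (limma adjusted p = 0.0968). The group means were 9.90 ± 11.2 FPKM in shCrebbp and 9.31 ± 6.20 FPKM in scramble libraries (SD, n = 4 each). On the log2 scale the group difference was -0.37 (limma adjusted p = 0.964, exact permutation p = 0.714). The linear and the log2 group means of Cd1d1 thus differ in sign. Its near-identical copy Cd1d2 was listed at 0 in 7 libraries and at 0.0851 FPKM in shCrebbp 3, and how fragments shared by the 2 copies were assigned is not stated, which leaves the Cd1d1 level uncertain to that extent.

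**Figure D2:**
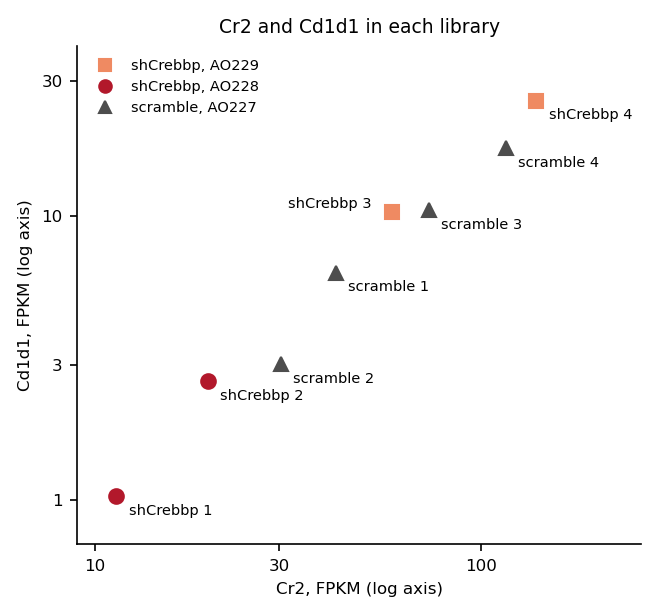
Cd1d1 against Cr2 in the 8 libraries, both in FPKM on logarithmic axes; squares are shCrebbp AO229, circles shCrebbp AO228 and triangles scramble libraries. The points follow one line, with shCrebbp 1 lowest (11.4 FPKM Cr2, 1.03 FPKM Cd1d1), shCrebbp 4 highest (139 and 25.6 FPKM), and the scramble libraries spread between.

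Cd9 encodes a tetraspanin of the cell surface found on marginal zone, B-1 and plasma cells. It lies on chromosome 6 (125460266 to 125494755, minus strand). Cd9 had 5.53 and 5.81 FPKM in AO229, and was listed at 0 and at 1.47 FPKM in AO228 libraries, against 13.4, 2.12, 17.8 and 13.2 FPKM in scramble libraries. Apart from scramble 2, every scramble library was above every shCrebbp library. The log2 difference between shCrebbp and scramble was -1.69, with a 95% confidence interval of -3.34 to -0.05 (limma unadjusted p = 0.0449, adjusted p = 0.915; exact permutation p = 0.114). Means were 3.20 ± 2.91 FPKM in shCrebbp and 11.6 ± 6.69 FPKM in scramble libraries (SD, n = 4 each). Between prefixes the log2 difference was 2.08 ± 0.80 (SE; limma adjusted p = 0.238). Annotated genes on the opposite strand, Gm28809 and Gm26728, overlap this locus, and whether counting used the strand is not stated.

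Myof encodes myoferlin, a ferlin of membrane fusion and repair (chromosome 19, 37899036 to 38043752, minus strand). It had 11.4 and 15.7 FPKM in AO229 and 7.32 and 11.6 FPKM in AO228 libraries, against 23.8, 26.6, 21.7 and 19.0 FPKM in scramble libraries. The groups did not overlap: the highest shCrebbp library was below the lowest scramble library. Means were 11.5 ± 3.42 FPKM in shCrebbp and 22.8 ± 3.23 FPKM in scramble libraries (SD, n = 4 each). The log2 difference was -0.96 ± 0.22 (SE; 95% confidence interval -1.45 to -0.47), and the exact permutation p of 0.0286 is the smallest that 4 against 4 libraries can give. Across all loci it did not pass (limma adjusted p = 0.811). Of all loci tested, 1.74% had every shCrebbp library below every scramble library, and Myof was 1 of 10 markers to do so. The ferlin paralogs Dysf and Otof were listed at 0 in every library.

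Notch2, the receptor of the marginal zone fate, lies on the plus strand of chromosome 3 (97978914 to 98154142). Its locus begins 34613 bases before the annotated gene and overlaps Gm42819 and Gm42820, annotated on the same strand. Notch2 had 63.9 and 49.5 FPKM in AO229 and 18.3 and 26.0 FPKM in AO228 libraries, against 37.1, 16.3, 41.4 and 52.0 FPKM in scramble libraries. The AO229 libraries were both above the AO228 libraries, and the scramble libraries ran from below the lowest AO228 to between the AO229 libraries. The log2 difference between prefixes was 1.32 ± 0.47 (SE; limma adjusted p = 0.201), and between shCrebbp (39.4 ± 21.0 FPKM) and scramble (36.7 ± 15.0 FPKM; SD, n = 4 each) it was 0.05 (limma adjusted p = 0.990; exact permutation p = 0.943).

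Dtx1 encodes Deltex 1, a ubiquitin ligase that is a transcriptional target and modifier of Notch signalling (chromosome 5, 120648430 to 120711686, minus strand). It had 40.4 and 70.05 FPKM in AO229 and 46.6 and 45.4 FPKM in AO228 libraries, against 65.3, 58.9, 56.4 and 73.8 FPKM in scramble libraries. All but 1 shCrebbp library were below the scramble range, and the 2 prefixes overlapped. Means of 50.6 ± 13.2 FPKM in shCrebbp and 63.6 ± 7.77 FPKM in scramble libraries (SD, n = 4 each) differed by -0.35 ± 0.19 on the log2 scale (SE; limma adjusted p = 0.915; exact permutation p = 0.114). The log2 difference between prefixes was 0.21 (limma adjusted p = 0.773), the smallest of the 10 markers. The locus extends 31772 bases past the annotated 3′ end and overlaps Rasal1 on the opposite strand, so the Dtx1 value may hold fragments of both.

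Plac8 encodes onzin, a small cysteine-rich protein, and was the most abundant of the 10 markers per length (chromosome 5, 100553733 to 100572205, minus strand). It had 379.8 and 535 FPKM in AO229 and 50.5 and 64.7 FPKM in AO228 libraries, against 155, 95.5, 332 and 268 FPKM in scramble libraries. As for Fcer2a, the scramble range lay wholly between the prefixes. Plac8 was 7.94 times as high in AO229 as in AO228, a log2 difference of 2.96 ± 0.52 (SE; 95% confidence interval 1.76 to 4.15) that passed the test (limma adjusted p = 0.0439). The group means of 257 ± 239 FPKM in shCrebbp and 213 ± 107 FPKM in scramble libraries (SD, n = 4 each) differed by -0.24 on the log2 scale (limma adjusted p = 0.981; exact permutation p = 0.800). The linear and the log2 means thus differ in sign, since the AO228 libraries weigh more on the log scale.

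Cd38 encodes an ectoenzyme that breaks down NAD and forms cyclic ADP-ribose (chromosome 5, 43868827 to 43912374, plus strand, with the annotated Gm16015 antisense to it). It had 34.8 and 43.2 FPKM in AO229 and 13.7 and 9.14 FPKM in AO228 libraries, against 26.2, 19.3, 31.6 and 31.2 FPKM in scramble libraries. Here too the prefixes lay outside the scramble range on opposite sides. Cd38 was 3.42 times as high in AO229 as in AO228, a log2 difference of 1.71 ± 0.28 (SE; 95% confidence interval 1.06 to 2.35) that passed the test (limma adjusted p = 0.0411). Between shCrebbp (25.2 ± 16.4 FPKM) and scramble libraries (27.1 ± 5.70 FPKM; SD, n = 4 each) the log2 difference was -0.32 (limma adjusted p = 0.946; exact permutation p = 0.543).

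Cd5, a brake on antigen receptor signalling carried by T cells and B-1a cells, was the lowest of the 10 markers per length (chromosome 19, 10718143 to 10738974, minus strand). It had 2.61 and 1.98 FPKM in AO229 and 0.751 and 1.01 FPKM in AO228 libraries, against 0.869, 0, 0.874 and 0.566 FPKM in scramble libraries. Only shCrebbp 1 lay within the scramble range and the other 3 shCrebbp libraries were above it. Means were 1.59 ± 0.865 FPKM in shCrebbp and 0.577 ± 0.411 FPKM in scramble libraries (SD, n = 4 each), a log2 difference of 0.70 ± 0.37 (SE; limma adjusted p = 0.915; exact permutation p = 0.0857). Of 8 T cell markers, 4 were above the expression filter. Cd3e ran from 0.481 to 0.932 FPKM in shCrebbp and from 0.172 to 1.20 FPKM in scramble libraries, and the summed level of all 8 was 20.9 to 36.2 FPKM in shCrebbp and 22.8 to 48.0 FPKM in scramble libraries. Most of that sum was Lck, which had 14.8 to 20.8 FPKM in shCrebbp and 18.0 to 36.7 FPKM in scramble libraries. The part of T cell RNA in the Cd5 values was not tested.

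In scramble libraries the mean levels per length ordered the markers as Plac8, Cr2, Dtx1, Fcer2a, Notch2, Cd38, Myof, Cd9, Cd1d1 and Cd5. Ranges of neighbours in that order overlapped, except between Myof and Cd9 and between Cd1d1 and Cd5. In shCrebbp libraries Fcer2a stood ahead of Cr2, and Cd1d1 ahead of Cd9, and the ranges of all neighbours overlapped.

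For the question of the series, the effect of shCrebbp, 7 of the 10 markers had a lower mean log2 level in shCrebbp than in scramble libraries, against 48.0% of all loci. Of these 7, Plac8 and Cd1d1 had a higher mean FPKM in shCrebbp (ratios of 1.21 and 1.06), so the count depends on the scale. The median log2 difference of the 10 was -0.34, beside 0.01 for all loci tested. Myof and Cd9 had an unadjusted p under 0.05 in limma, both lower in shCrebbp, where 2.93% of all loci did so, and none passed adjustment, as for 0% of all loci.

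Between the prefixes, 10 of 10 markers had a higher mean log2 level in AO229 than in AO228 libraries, against 50.4% of all loci. The gap was above 1 for Cr2, Fcer2a, Cd1d1, Cd9, Notch2, Plac8 and Cd38, as for 6.08% of all loci, and the same 7 had an unadjusted p under 0.05 in limma, as for 7.75% of all loci in that direction. Both AO229 libraries exceeded both AO228 libraries for 8 markers, against 25.5% of all loci. The median log2 difference of the 10 was 1.90, beside 0.00 for all loci. Of all loci, 0.666% were called higher in AO229 at a limma adjusted p under 0.05 (76 loci, beside 70 or 0.613% called lower, 1.28% in all), and 3 of the 10 markers were. These 3 calls ended without any filter on low values, without a mean trend in the fit, and without scramble 1, scramble 3 or any single shCrebbp library, with limma adjusted p between 0.0533 and 0.315. Those of Fcer2a and Plac8 also ended without scramble 4 (limma adjusted p = 0.0524 each). That of Cd38 also ended with only the 4 shCrebbp libraries in the fit (limma adjusted p = 0.0548), where Fcer2a and Plac8 still passed. Without scramble 2, which had the most loci at 0, Cr2, Cd1d1, Cd9 and Notch2 passed as well, and 4.61% of all loci did.

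**Figure D3:**
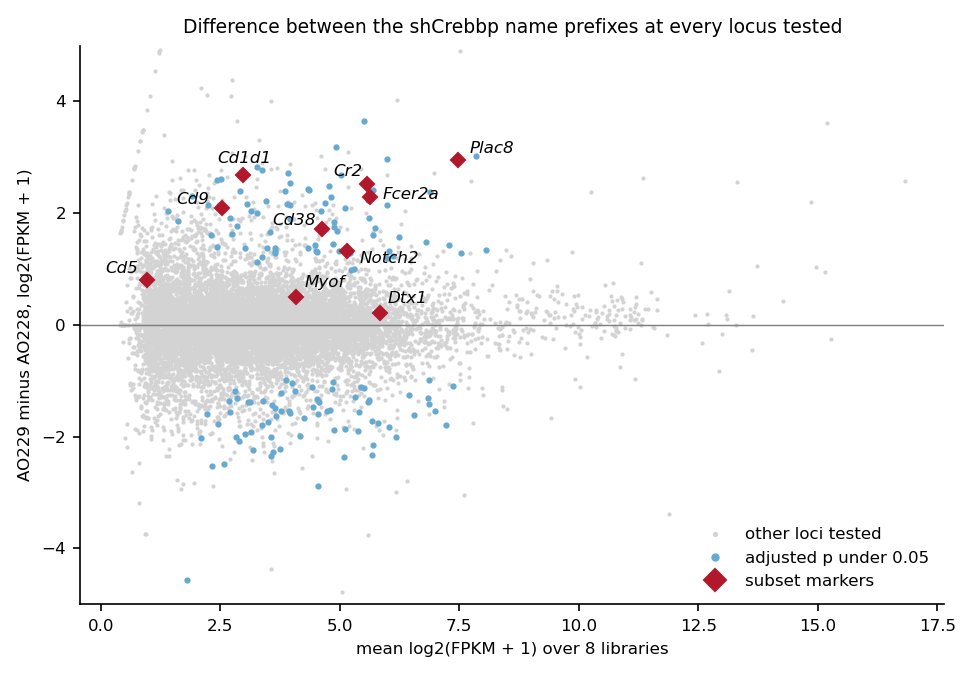
Difference in mean log2(FPKM + 1) between AO229 and AO228 shCrebbp libraries (vertical axis) against the mean over 8 libraries (horizontal axis) for the 11417 loci tested; small blue points have a limma adjusted p under 0.05 and red diamonds are the 10 markers. All diamonds lie above 0, from Dtx1 at 0.21 to Plac8 at 2.96, and the axis leaves out 19 loci beyond 5.

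Both prefixes were also set against the same 4 scramble libraries, so the 2 sets of differences share those libraries. AO229 was above scramble for 7 markers, against 5978 of the 11417 loci tested. For Fcer2a, Plac8 and Cd5 the limma unadjusted p was under 0.05, as for 4.03% of all loci in that direction. AO228 was below scramble for 9 markers, all but Cd5, against 5504 of the 11417 loci. For 7 of these markers the limma unadjusted p was under 0.05, as for 6.28% of all loci in that direction. None of these passed adjustment, as for 0% of all loci in AO228 and 0.0175% in AO229 libraries. The log2 difference from scramble was 1.31 in AO229 and -0.99 in AO228 for Fcer2a, 1.24 and -1.72 for Plac8, and 0.53 and -1.18 for Cd38. Myof alone was below scramble in both at an unadjusted p under 0.05, by a log2 difference of -0.71 in AO229, where 5.84% of all loci were lower at that p, and -1.21 in AO228. Having AO228 below and AO229 above every scramble library, as Fcer2a, Plac8 and Cd38 did, was seen at 1.45% of all loci.

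**Figure D4:**
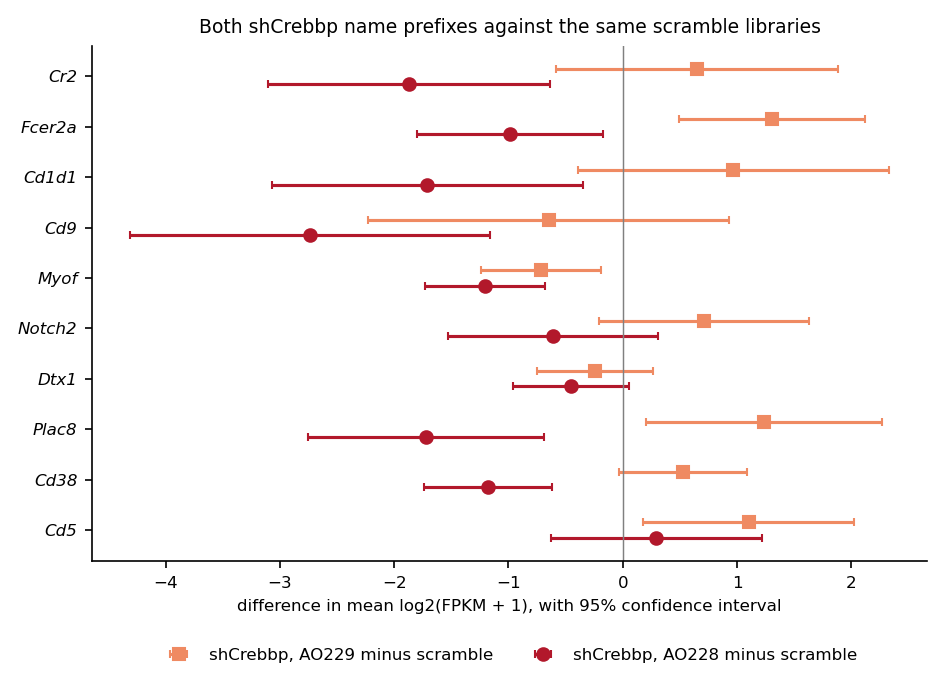
Difference in mean log2(FPKM + 1) from the 4 scramble libraries for each marker, with 95% confidence intervals from limma; squares are AO229 minus scramble and circles AO228 minus scramble, and both rest on the same scramble libraries. The circles lie left of 0 for all markers but Cd5, and the squares lie right of 0 for all but Cd9, Myof and Dtx1.

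The scramble libraries also differed among themselves. Scramble 2 was the lowest of the 4 for 7 of the 10 markers, and scramble 3 and 4 were each above the 8-library median for 9 of them. The matching shares of all loci were not computed, so whether these counts are particular to the markers was not tested. Scramble 2 also had the most loci at 0 (51.8%). Averaged over the 10 markers, the centred log2 level, each gene's log2(FPKM + 1) less its own 8-library mean, was 0.50 and 0.84 in AO229 and -1.20 and -0.87 in AO228 libraries, against 0.11, -0.52, 0.53 and 0.61 in scramble libraries 1 to 4.

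Germinal centre B cell markers ran the other way. The same average over 6 of them was -1.39 and -0.76 in AO229 and 1.10 and 0.62 in AO228 libraries, against 0.13, 0.71, 0.01 and -0.42 in scramble libraries. For all 6 the AO229 mean was the lower one, with a median log2 difference of -2.03 beside 0.00 for all loci. S1pr2, a receptor that confines cells to the germinal centre, fell to a mean of 20.5 FPKM in AO229, against 93.4 FPKM in AO228 libraries (log2 difference -2.16; limma adjusted p = 0.0359). Gcsam was also lower (-2.88, limma adjusted p = 0.0497). It was named after its values had been seen, whereas S1pr2 was named by the rule for the lists, which were chosen with earlier results known. These calls also ended without any filter on low values, without a mean trend, and without scramble 1 or scramble 3. Without the filter the limma adjusted p was 0.0769 for S1pr2 and 0.130 for Gcsam. Both calls ended as well without any single shCrebbp library, which leaves its prefix with 1 library. All this held too for the calls of the listed genes S1pr1, Cd80, Hes1, Cd55 and Irf4 given next. With only the 4 shCrebbp libraries in the fit, the calls of Gcsam, Cd80, Hes1 and Irf4 ended, while S1pr2, S1pr1 and Cd55 still passed. Rgs13, a regulator of G-protein signalling, did not pass (-1.97; limma adjusted p = 0.136). Their summed level was 90.6 to 131 FPKM in AO229 and 356 to 496 FPKM in AO228 libraries, against 169.7 to 420.4 FPKM in scramble libraries, and the part of germinal centre cells in the marker differences was not tested.

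**Figure D5:**
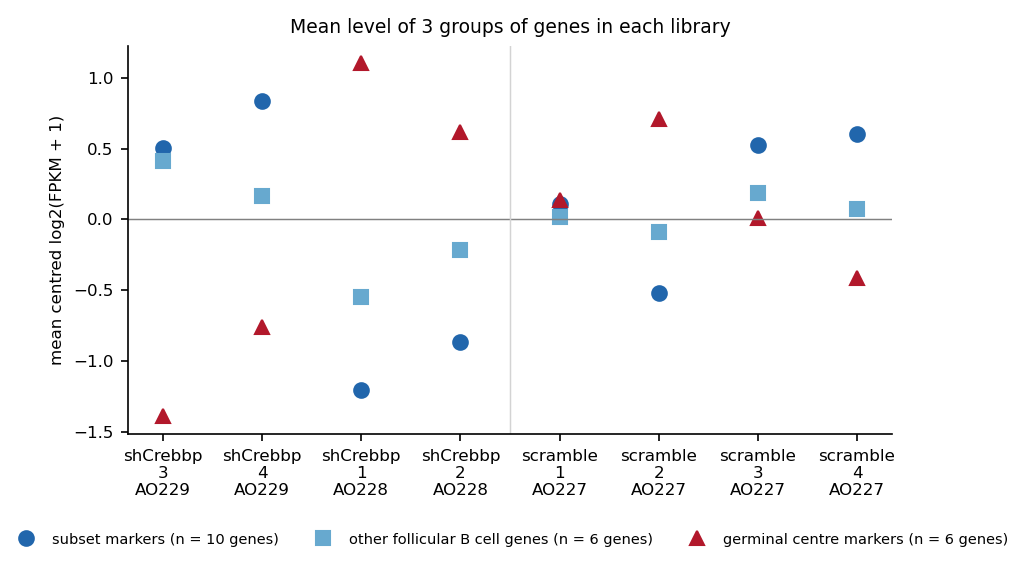
Mean over the genes of a list of the centred log2(FPKM + 1) in each library, for the 10 subset markers (dark circles), 6 other follicular B cell genes (light squares) and 6 germinal centre B cell markers (triangles). The subset markers lie between 0.50 and 0.84 in the AO229 libraries and between -1.20 and -0.87 in the AO228 libraries, and the germinal centre markers lie on the opposite side of 0 in those 4.

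Other genes of the same B cell subsets were compared from lists. Of 6 other marginal zone genes, 5 were higher in AO229 than in AO228 libraries (median log2 difference 1.33), and S1pr1, which draws B cells towards blood and the marginal zone, passed (named after its values were seen). S1pr1 had 137 and 147 FPKM in AO229 and 44.5 and 50.3 FPKM in AO228 libraries, against 55.7, 61.9, 86.8 and 71.5 FPKM in scramble libraries, a log2 difference between prefixes of 1.57 (limma adjusted p = 0.0305). S1pr3, another receptor of that lipid, had 3.10 and 13.8 FPKM in AO229 and 2.89 and 2.43 FPKM in AO228 libraries, so that 1 library carried the gap. Asb2, a substrate adaptor of ubiquitin ligases, had 2.14 and 10.5 FPKM in AO229 and 0.808 and 1.21 FPKM in AO228 libraries. Mzb1, an endoplasmic reticulum chaperone of marginal zone and plasma cells, lay the other way, with 186 and 287 FPKM in AO229 and 467 and 249 FPKM in AO228 libraries.

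Of 6 other follicular genes tested, 4 were higher in AO229, each with a limma unadjusted p under 0.05, where 7.75% of all loci were higher at that p (the median log2 difference of the list was 0.68), and none passed adjustment. Bach2, a repressor that holds back plasma cell differentiation, lay the other way, named after its values were seen: it had 71.9 and 67.8 FPKM in AO229 and 109 and 177 FPKM in AO228 libraries (log2 difference -0.98; limma unadjusted p = 0.00666, adjusted p = 0.121). Klf2, a factor of lymphocyte homing and quiescence, had 636 and 465 FPKM in AO229 and 217 and 244 FPKM in AO228 libraries, against 468, 322, 459.6 and 413 FPKM in scramble libraries (limma adjusted p = 0.0600). Cxcr5, the chemokine receptor for follicles, differed by 0.53 on the log2 scale (limma adjusted p = 0.221), and Tnfrsf13c, the receptor for the survival factor BAFF, by -0.30 (limma adjusted p = 0.663). Of 7 other memory genes, 5 were higher in AO229 (median log2 difference 0.93). The only one of them to pass was Cd80, a costimulatory ligand of memory B cells, and it was lower: 2.99 and 5.19 FPKM in AO229 and 17.3 and 14.0 FPKM in AO228 libraries, against 14.9, 17.7, 10.9 and 9.89 FPKM in scramble libraries (limma adjusted p = 0.0475). Nt5e, the ectoenzyme CD73, had a log2 difference of -1.81 (limma adjusted p = 0.0613), and Zbtb32, a repressor that limits memory B cell recall in mice, one of 1.17 (limma adjusted p = 0.0968). The memory markers measured thus lay on both sides. Of 6 other B-1 genes, 4 were tested and 2 were higher in AO229, none past the threshold. Bhlhe41, a factor that B-1a cells need, had a log2 difference of 0.62 (limma adjusted p = 0.305), and Spn, which encodes CD43, one of -0.31 (limma adjusted p = 0.846).

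Notch pathway genes lay on both sides. Of 17 other ligands, receptors and processing genes, 12 were tested: the AO229 mean exceeded the AO228 mean for 8 and was below it for 4, with a median log2 difference of 0.19 and none past the threshold. The ligand gene Dll1 had 2.15 and 1.90 FPKM in AO229 and 5.54 and 5.55 FPKM in AO228 libraries, against 8.42, 3.78, 5.25 and 7.34 FPKM in scramble libraries (log2 difference between prefixes -1.11; limma adjusted p = 0.148). The gamma-secretase subunit genes Psen2 and Psenen differed by 0.10 and -0.49 (limma adjusted p = 0.889 and 0.575). Of 15 other genes of the transcription complex, its modifiers and targets, 13 were tested, 6 higher and 7 lower in AO229, with a median of -0.04. Hes1, a repressor that Notch induces, was the one to pass and was named after its values were seen. It had 25.9 and 35.6 FPKM in AO229 and 3.01 and 6.26 FPKM in AO228 libraries, against 13.7, 11.4, 18.6 and 30.7 FPKM in scramble libraries, a log2 difference between prefixes of 2.54 (limma adjusted p = 0.0443). Nrarp, a feedback inhibitor of Notch, had 1.35 and 1.19 FPKM in AO229 and 1.61 and 1.07 FPKM in AO228 libraries, against 3.06, 5.95, 1.86 and 2.91 FPKM in scramble libraries. Every shCrebbp library was below every scramble library for Nrarp, as for Myof and at 1.74% of all loci. Its group difference of -0.88 did not pass (limma adjusted p = 0.915). Dtx3l, a Deltex relative, lay the other way without overlap, at 9.39 to 16.0 FPKM in shCrebbp and 5.54 to 7.71 FPKM in scramble libraries. The share of all loci higher in shCrebbp without overlap was not computed. The group difference was 0.73 for Dtx3l (limma adjusted p = 0.915) and 0.07 for Dtx3 (limma adjusted p = 0.973).

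Among partners of CD21 and complement genes, 4 of 7 were tested and 3 of these were higher in AO229. Cd55, which shields cells from complement, passed with 148 and 108 FPKM in AO229 and 23.6 and 29.2 FPKM in AO228 libraries, against 33.4, 28.0, 45.3 and 52.3 FPKM in scramble libraries (log2 difference between prefixes 2.23; limma adjusted p = 0.0305; named after its values were seen). Cd81, which joins CD21 in the B cell coreceptor, differed by 0.12 (limma adjusted p = 0.850), and Cr1l, the complement regulator Crry, by 0.17 (limma adjusted p = 0.789). Of 9 other tetraspanins and CD9 partners, 7 were tested and all 7 had a higher mean in AO229 (median log2 difference 0.73), none past the threshold. The most abundant, Cd37, differed by 0.73 (limma adjusted p = 0.159), and Cd53 by 0.13 (limma adjusted p = 0.868). Interleukin-4, which induces CD23, signals through Il4ra and Stat6: of 6 genes of that route, 4 were higher in AO229 (median 0.31) and none passed. Stat6 differed by 0.52 (limma adjusted p = 0.305), Il2rg by 1.19 (limma adjusted p = 0.0939) and Jak1 by -0.26 (limma adjusted p = 0.559). Of 8 paralogs of the markers, 2 were tested, Notch1 with a log2 difference of 1.04 (limma adjusted p = 0.140) and Dtx3l with -0.41 (limma adjusted p = 0.464).

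Markers of other cells were measured beside these. Plasma cell markers summed to 864 to 2113 FPKM in shCrebbp and 1496 to 2846 FPKM in scramble libraries. Of 7 tested, 6 were lower in shCrebbp, against 48.0% of all loci, with a median log2 difference of -0.56. For 3 of them the limma unadjusted p was under 0.05, where 2.93% of all loci were lower at that p. Between prefixes 5 of the 7 were lower in AO229, and Irf4, a factor of activated B and plasma cells, was higher (log2 difference 1.28; limma adjusted p = 0.0497; named after its values were seen). Of 14 macrophage and monocyte markers 5 were tested, none past the threshold, and all 14 summed to 229 to 382 FPKM in shCrebbp and 310.3 to 447 FPKM in scramble libraries. Cd68 alone had 219 to 365 FPKM in shCrebbp and 274 to 423 FPKM in scramble libraries, while the defining Csf1r reached at most 1.12 FPKM in shCrebbp and 0.797 FPKM in scramble libraries. Of natural killer (6), neutrophil (6), follicular dendritic and stromal (7), and platelet and erythroid markers (8), 1 each was above the filter, none past the threshold, and each list summed to at most 6.66 FPKM in shCrebbp and 8.08 FPKM in scramble libraries. Col1a1 was listed at 0 in every shCrebbp library and Elane in all 8. Of 6 dendritic cell markers 2 were tested, none past the threshold, and they summed to 16.1 to 39.6 FPKM in shCrebbp and 27.3 to 40.6 FPKM in scramble libraries, mostly Flt3, which had 12.4 and 18.6 FPKM in AO229 and 39.1 and 31.4 FPKM in AO228 libraries. Of 8 B cell markers, 5 were higher in AO229 (median 0.27) and none passed. The part of these cells in the marker differences was not tested.

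The locus whose profile over the 8 libraries was most like that of each marker was sought among 9888 named loci, by the mean absolute difference of centred log2(FPKM + 1). Cr2 and Cd1d1 were each other's nearest, at 0.13, where the median over candidates was 0.99 for Cr2 and 1.05 for Cd1d1. Plac8 was nearest to Myc (0.18, median 1.07), which had 67.8 and 97.1 FPKM in AO229 and 12.2 and 15.9 FPKM in AO228 libraries, against 30.6, 16.8, 57.9 and 58.2 FPKM in scramble libraries. Fcer2a was nearest to Sbk1 (0.22, median 0.83), Cd38 to Adamts10 (0.15, median 0.62) and Notch2 to Btg3 (0.12, median 0.61). Cd9 was nearest to Ptpn22 (0.35, median 1.19) and Cd5 to Itfg3 (0.13, median 0.48). Myof was nearest to Art3 (0.14, median 0.55), which had 0.626 and 0.644 FPKM in AO229 and 0.146 and 0.612 FPKM in AO228 libraries, against 1.90, 2.97, 2.37 and 1.83 FPKM in scramble libraries. The medians of Cd5 and Myof were lower than those of Cr2 and Cd1d1, so similar distances set them less apart. Dtx1 spanned under 1 on the log2 scale and was not searched.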

How the data were processed

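Total RNA from 8 samples was sequenced as ribosome-depleted stranded libraries, per the labels' protocols. The submitters' processing notes name mm10, CASAVA 1.8, TopHat2 and Cufflinks, without role or parameters. The authors deposited 1 table of FPKM, a unit inferred from its values and locus identifiers. It had 25478 lines, of which 1 was emptied, and 5 of its 13 sample columns matched no sample and were not used. No counts are given, so depth is unknown and precision rests on replicates.

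Values were taken as log2(FPKM + 1), which understates changes of low genes, and the 11417 loci averaging 1 FPKM or more were tested with limma 3.58.1 in R 4.3.3: two-sided, empirical Bayes with a mean trend, Benjamini-Hochberg adjustment over all loci tested, threshold 0.05. One fit had the groups and a second the 3 name prefixes, all 8 libraries sharing 1 spread. Group differences of single markers also had a two-sided exact permutation test over 70 divisions. Like the group fit, it took each library as a single unit and no account of the name prefixes. The fit was tested on simulated data. Figures and ranges were made in Python 3.11.15.

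The 10 markers and the 20 gene lists were chosen with earlier results of these data known. From each list were named the genes of smallest unadjusted p between groups and the gene of highest mean, up to 3. Some listed genes are not reported here and were left out of the lists. Replicates were numbered in listed order. Locus starts count from 1, and gene bounds come from GENCODE M21 (GRCm38). Alternatives were another pseudocount, other filters, scalings and priors, single prefixes, and each library left out.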

Additional observations from a re-analysis of the deposited data

Results flagged for a closer look

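The difference between the effects of the AO229 and AO228 libraries, each against the same scramble libraries, passed limma's test (adjusted p under 0.05) for Fcer2a (2.29 on the log2 scale), Plac8 (2.96) and Cd38 (1.71). Among listed genes it also passed for Hes1 (2.54), S1pr1 (1.57), Cd55 (2.23) and Irf4 (1.28), all higher in AO229. It passed with the opposite sign for Cd80 (-1.74), S1pr2 (-2.16) and Gcsam (-2.88).

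A single library stood apart from the other 3 of its group, with a gap above the critical value of Dixon's test, in 7 of 118 groups looked at. Chance alone marks about 1 in 20. Of the 10 markers this touched Cd9, where scramble 2 was lowest (gap 0.841 of the range). The others were Psenen with shCrebbp 1 highest (0.897), S1pr3 with shCrebbp 4 highest (0.877), Blnk with shCrebbp 1 lowest (0.894), Tnfrsf13c with scramble 2 highest (0.939), Cd81 with scramble 1 lowest (0.879) and Irf4 with scramble 3 highest (0.888).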

How the results depend on the processing

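No paired analysis was possible because replicate numbers were given in listed order and pair nothing. The summing of several loci of a symbol was not run, since each marker had 1 locus. Between shCrebbp and scramble no marker passed under any of the alternatives. The count of loci called, 0 as reported, was 1 with only the AO228 and 3 with only the AO229 shCrebbp libraries, and 0 to 2 with 1 library left out. The count of markers lower in shCrebbp, 7 as reported, was 3 with only AO229, 9 with only AO228, and 5 (without shCrebbp 1 or 2) to 9 (without shCrebbp 3 or 4) with 1 library left out. The sign of a group difference turned for 6 markers. With only AO228 it was -0.99 for Fcer2a and -0.61 for Notch2. With only AO229 it was 0.65 for Cr2, 0.97 for Cd1d1, 1.24 for Plac8 and 0.53 for Cd38. Without scramble 2 and shCrebbp 3 together, an alternative chosen after seeing the data, it was -0.40 for Fcer2a and -0.57 for Notch2. With 1 library left out it ran from -0.31 to 0.64 for Fcer2a, -0.29 to 0.35 for Notch2, -1.02 to 0.21 for Cd1d1, -0.82 to 0.31 for Plac8 and -0.66 to 0.048 for Cd38. Cd9, Myof, Dtx1 and Cd5 kept their sign in all.

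Between AO229 and AO228 the count of loci called, 146 as reported, was 27 with no filter, 240.0 with a mean of at least 5 FPKM, 2 without a mean trend, 11 in the added alternative, and 3 (without scramble 1 or scramble 3) to 525 (without scramble 2) with 1 library left out. Fcer2a, Plac8 and Cd38 each passed in 6 of 16 alternatives, with limma adjusted p from 0.0308 to 0.315 for Fcer2a, 0.0162 to 0.271 for Plac8 and 0.0194 to 0.236 for Cd38. Leaving out a shCrebbp library leaves its prefix with 1 library, assumed to vary like the others. The sign turned once, for Dtx1, whose difference ran from -0.18 to 0.60 with 1 library left out. The cause of these changes was not tested. Of the 7 listed genes that passed between prefixes, Gcsam passed in 4 of 16 alternatives and the others in 5 to 7, and none turned its sign. FPKM without counts limits what can be said of the low genes Cd5, Cd1d1 and Cd9.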

Other observations

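Chemokine receptor and tetraspanin genes of the lists, named after their values were seen, had wide gaps between prefixes without passing adjustment in limma. Ccr7, the receptor that draws cells to T cell zones, had 422 and 226 FPKM in AO229 and 30.6 and 69.8 FPKM in AO228 libraries, against 97.4, 73.9, 203 and 178 FPKM in scramble libraries (limma adjusted p = 0.0615). Ccr6, a chemokine receptor of memory precursors, had 9.45 and 21.3 FPKM in AO229 and 1.55 and 3.34 FPKM in AO228 libraries, against 10.5, 5.20, 14.7 and 14.8 FPKM in scramble libraries (limma adjusted p = 0.0883). The tetraspanin Tspan32 had 46.1 and 40.7 FPKM in AO229 and 9.94 and 7.68 FPKM in AO228 libraries, against 16.2, 13.8, 34.3 and 37.9 FPKM in scramble libraries (limma adjusted p = 0.0631).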
